A study of Homo sapiens with 23 samples.

Results

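CD164, also called endolyn, and 7 lysosomal genes are described here across 6 comparisons: LAMP1, LAMP2, SCARB2, NPC1, NPC2, CD63 and TMEM192. All 8 genes were found by symbol among the 61217 genes listed in each deposited table. CD164 was chosen by its fold change and p-value after miR-124-3p, where it was a leading fall, so its values in both miR-124-3p comparisons are given as a description without a test. The other 7 genes were picked as its neighbours in the lysosome, with earlier results of these data known. All 8 passed the minimum level in every comparison. On GRCh38, CD164 lies on the minus strand of chromosome 6 (109366514 to 109382812) and NPC1, the only neighbour called, on the minus strand of chromosome 18 (23506184 to 23586898).

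RNA was sequenced from CaSki, an established HPV-positive line from a metastasis of a cervical squamous carcinoma, and from C-33A, an established HPV-negative cervical line that the labels also call a squamous cell carcinoma. Cells of each line received 100 nM of hsa-miR-124-3p, hsa-miR-23b-3p or hsa-miR-218-5p, called mimics below, or 100 nM of a negative control, and carry no other labelled change. CaSki had 3 samples in each of its 4 groups, and C-33A had 2 samples with miR-124-3p and 3 in each of its other 3 groups. Sample titles carry the labels RB1 to RB3, which recur across groups. The C-33A miR-124-3p group lacks RB1, which its control has, and any effect of this imbalance was not tested. Each deposited table sets 1 mimic against its line's negative control, so the 3 tables of a line share their control samples. No values per sample are used here and depth is unknown, and the labels do not say whether samples came from separate cultures. Of 10 epithelial markers (keratins, EPCAM, CDH1 and TP63), all 10 were measured in CaSki, which here means an average log2 CPM (reads scaled to library size) of at least 1, where KRT5 averaged 4245 to 4334 CPM over the 3 tables. In C-33A none of the 10 was measured, and their summed level was 4.78 to 4.94 CPM, so the squamous label of C-33A is not borne out by these markers. Of 6 fibroblast markers 1 was measured in CaSki (summed level of the list 3.62 to 4.07 CPM) and 2 in C-33A (148 to 157 CPM). Of 5 leukocyte markers 0 were measured in CaSki (0.497 to 0.523 CPM) and 1 in C-33A (5.87 to 6.79 CPM), and of 4 endothelial markers 0 in either line. In CaSki 140 to 160 measured genes per comparison, none of them among the 8, had a log2 fold change below -8 without a call, against 0 in C-33A. Whether all CaSki libraries were counted alike was not tested.

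Lysosomes are acidic organelles that break down material from endocytosis and autophagy, and their membrane is lined by heavily glycosylated proteins. CD164 is a sialomucin that cycles between the cell surface, endosomes and lysosomes, and it was first studied as an adhesion molecule of blood progenitor cells. LAMP1 and LAMP2 are the main membrane glycoproteins, and LAMP2 also serves in chaperone-mediated autophagy. SCARB2 (LIMP-2) is a sorting receptor of the lysosomal membrane, NPC1 exports cholesterol across the lysosomal membrane, CD63 is a tetraspanin of late endosomes, and TMEM192 is a membrane protein often tagged to purify lysosomes. NPC2 is a soluble protein of the lumen that hands cholesterol to NPC1, so it belongs to the group by its role and not as a membrane protein. A microRNA guides Argonaute proteins to messages that pair with its seed, the bases near its 5' end, and paired messages are repressed or degraded.

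The seeds decide which of these messages could pair with a mimic, so the mature sequences that could be matched (RefSeq, GRCh38.p14) are shown 5' to 3' with positions 2 to 8 in capitals. The mature sequence of miR-124-3p and its seed matches are not analysed here.
miR-23b-3p: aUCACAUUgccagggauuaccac
miR-218-5p: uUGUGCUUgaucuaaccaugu
The locus of miR-23b-3p is MIR23B on chromosome 9 (95085265 to 95085287, plus strand). The same mature miR-218-5p is made from MIR218-1 on chromosome 4 (20528299 to 20528319, plus strand) and MIR218-2 on chromosome 5 (168768211 to 168768231, minus strand).

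For each gene, matches were sought on the sense strand in the 3' UTR annotated for its longest coding transcript (GENCODE release 29, GRCh38). Other transcripts of a gene were not searched, and fold changes are by gene, so which transcripts held a match in these cells was not measured. The motif was AATGTGA for miR-23b-3p and AAGCACA for miR-218-5p, and a match followed by A is an 8mer. Of 19077 such 3' UTRs, 18.1% held the miR-23b-3p motif and 13.7% the miR-218-5p motif. CD164 held neither in its 2337 bases. LAMP1, NPC1, NPC2 and TMEM192 held a miR-23b-3p match, and LAMP2 and TMEM192 held a miR-218-5p match. The 30-base windows follow in the sense of the message, with the match in capitals and the A of an 8mer included.
LAMP1, miR-23b-3p, 8mer: tctgcttcatccAATGTGAAgttcatcttg
LAMP1, miR-23b-3p, 7mer: tgcgctgtgtacAATGTGAgatcggtgcgt
NPC1, miR-23b-3p, 7mer: tagatggctgtgAATGTGAtccgctcactg
NPC2, miR-23b-3p, 8mer: gcttaaaaatgaAATGTGAAgttgtagcaa
TMEM192, miR-23b-3p, 8mer: tgataatttccaAATGTGAAtcttcagcca
LAMP2, miR-218-5p, 8mer: aaaaataattggAAGCACAAgtgcatggca
TMEM192, miR-218-5p, 7mer: ttttggattgctAAGCACAttcttacctga
The 2 matches of LAMP1, on the plus strand of chromosome 13, lie at 113322537 to 113322543 and 113323314 to 113323320. The match of NPC1 lies on the minus strand of chromosome 18 (23531911 to 23531917) and that of NPC2 on the minus strand of chromosome 14 (74479548 to 74479554). TMEM192, on the minus strand of chromosome 4, has its miR-23b-3p match at 165072891 to 165072897 and its miR-218-5p match at 165071688 to 165071694, in a 3' UTR of 9050 bases. The match of LAMP2 lies on the minus strand of the X chromosome at 120436935 to 120436941, 441 bases before the end of the 3' UTR.

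The level of each gene was recovered for each group from the deposited fold change and average log2 CPM, since both are fixed by the mean of the mimic group and that of the control group. The 3 tables of a line give the control level 3 times, and these differed by a median of 5.16% over 12954 genes in CaSki and 1.77% over 12723 genes in C-33A. CPM is a share of the sequenced RNA, so fewer messages per cell and a change in which cells remained cannot be told apart.

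CD164 stood lowest with miR-124-3p in both lines. In CaSki it was at 70.7 CPM with miR-124-3p, 172 CPM with miR-23b-3p and 163 CPM with miR-218-5p, against 146 to 152 CPM in the control. In C-33A it was at 154 CPM with miR-124-3p, 416 CPM with miR-23b-3p and 365 CPM with miR-218-5p, against 426 to 434 CPM in the control. Only the miR-124-3p group of each line lay far from the other 3 groups. Whether single samples overlap cannot be read from group levels.

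**Figure D1:**
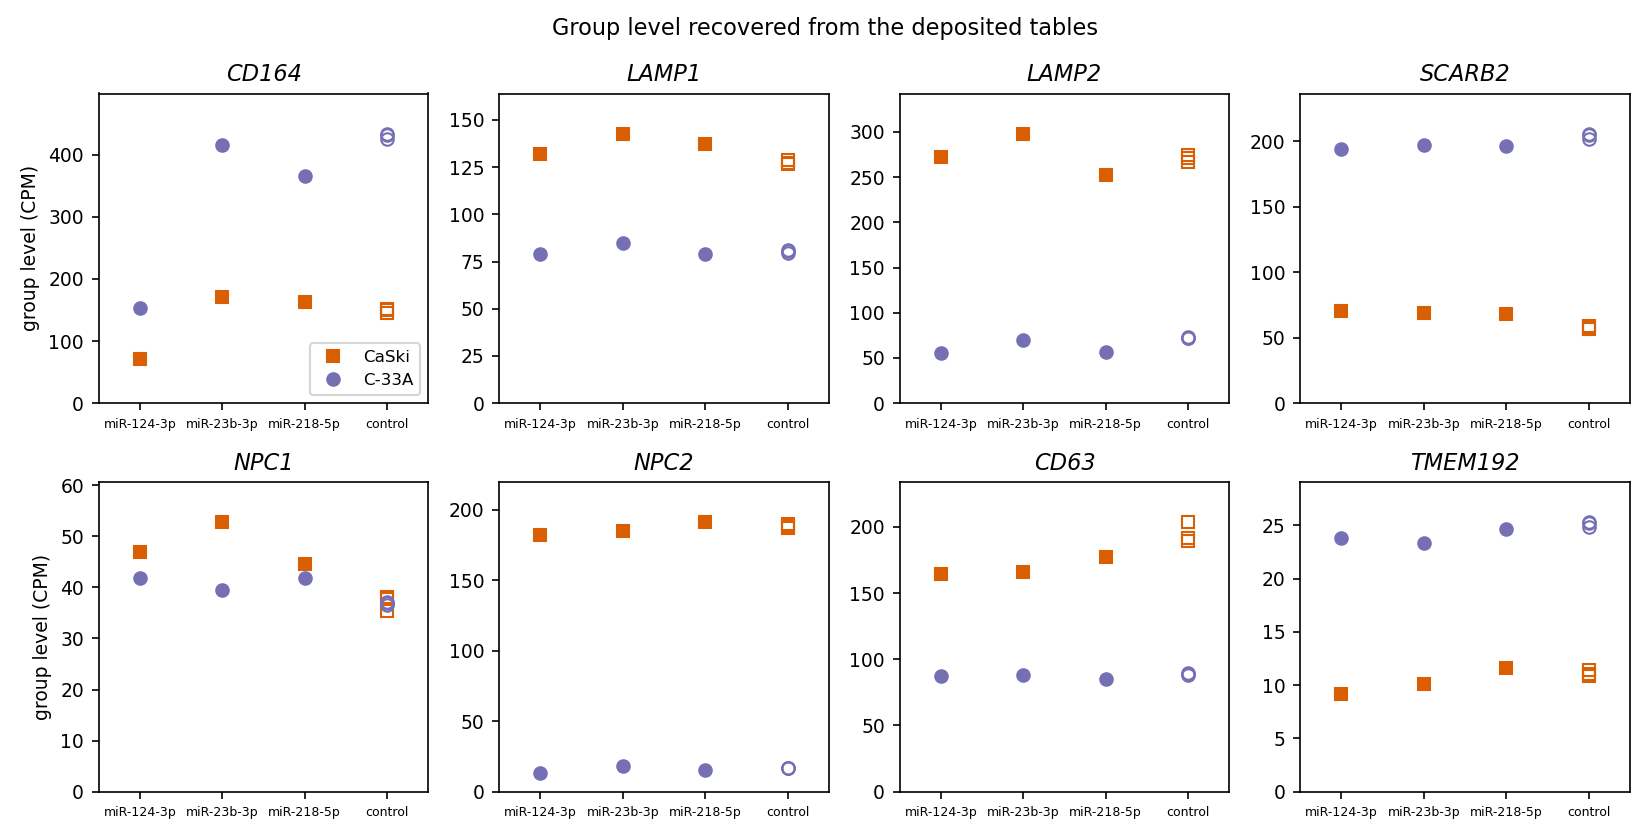
Group level (CPM, linear axis from 0) of each gene in CaSki (squares) and C-33A (circles), with the 3 mimics as filled symbols and the control, recovered from 3 tables, as open symbols; samples are not shown. CD164 is at 70.7 CPM in CaSki and 154 CPM in C-33A with miR-124-3p, while NPC2 is at 182 CPM or more in every CaSki group and at 18.0 CPM or less in every C-33A group.

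In the authors' deposited table for CaSki with miR-124-3p, CD164 had a log2 fold change of -1.10 (SE 0.181, recovered from the deposited p-value), which leaves 46.5% of the control level (95% interval 36.4% to 59.5%). In the authors' deposited table for C-33A with miR-124-3p it had a log2 fold change of -1.50 (SE 0.175), or 35.4% of the control level (interval 27.9% to 44.9%). These are values that chose the gene. By deposited p-value CD164 stood at place 10 in CaSki and at place 1 in C-33A, where ATL3 came next with a log2 fold change of -1.45 in the authors' deposited table. The difference CaSki minus C-33A was 0.39 on the log2 scale (interval -0.10 to 0.89), given without a test.

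Measured in CPM, the message lost by CD164 differed more between the lines than its fold change did. The level with miR-124-3p minus that of the control was -81.3 CPM in CaSki, the 28th largest loss among the genes that fell there. In C-33A this difference was -280 CPM, the largest loss among the genes that fell, ahead of the integrin subunit ITGB1 at -265 CPM. CD164 made up 1.09% of the summed loss of the fallen genes in CaSki and 6.62% in C-33A. These losses, places and shares are computed from the fold changes that chose CD164 and are a description only. The 2 levels in the same line come from a single table, whereas tables were normalized separately, so the lines were not tested against each other on this scale.

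With the other mimics CD164 did not pass the test in either line. The share of all measured genes that were called (deposited FDR under 0.05) is the background. With miR-23b-3p it was 10.4% in CaSki (4.47% fell and 5.89% rose) and 0.225% in C-33A (0.148% fell and 0.0777% rose). With miR-218-5p it was 0.115% in CaSki (0.0994% fell and 0.0153% rose) and 0.357% in C-33A (0.326% fell and 0.031% rose). In the authors' deposited table for CaSki with miR-23b-3p, CD164 had a log2 fold change of 0.24 (interval 0.02 to 0.46, edgeR adjusted p = 0.427). With miR-218-5p in CaSki it was 0.12 in the authors' deposited table (interval -0.13 to 0.36). In C-33A the authors' deposited tables gave -0.04 with miR-23b-3p (interval -0.36 to 0.29) and -0.24 with miR-218-5p (interval -0.56 to 0.08). Set against the average of the line's other 2 mimics, where control samples cancel, CD164 with miR-124-3p stood at -1.28 in CaSki and -1.36 in C-33A, values that hold the same fold changes that chose it.

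None of the 7 neighbours was called with miR-124-3p in either line, where 1.4% of measured genes were called in CaSki (0.936% fell and 0.464% rose) and 0.754% in C-33A (0.616% fell and 0.139% rose). Their log2 fold changes in the authors' deposited tables for miR-124-3p ran from -0.27 (TMEM192) to 0.30 (NPC1) in CaSki and from -0.39 (LAMP2) to 0.17 (NPC1) in C-33A. Their medians were -0.02 in CaSki and -0.08 in C-33A, against -0.02 and -0.01 over all measured genes. An unadjusted p under 0.05 was found for 2 of the 7 neighbours in CaSki (NPC1 and SCARB2), where 16.3% of measured genes had one, and for LAMP2 in C-33A, where 10.9% did.

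**Figure D2:**
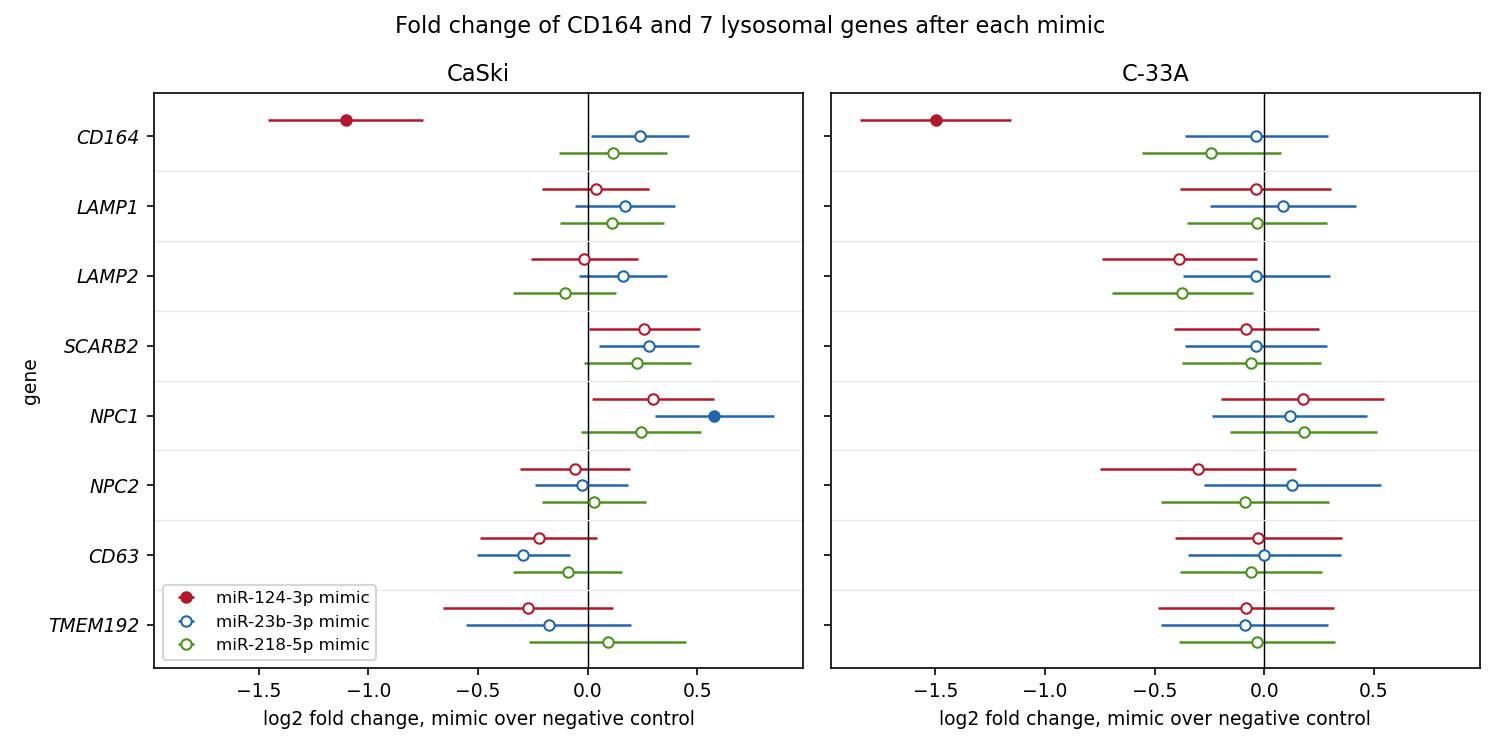
Log2 fold change of each gene, mimic over negative control, in CaSki (left) and C-33A (right); bars are 95% intervals from the recovered SE and filled points have a deposited FDR under 0.05. The filled points are CD164 with miR-124-3p at -1.10 in CaSki and -1.50 in C-33A and NPC1 with miR-23b-3p in CaSki at 0.58; the values of CD164 with miR-124-3p were used to choose it.

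Among the cholesterol handlers, NPC1 was the only neighbour called in any comparison, and it rose in CaSki with miR-23b-3p. It was at 46.9 CPM with miR-124-3p, 52.7 CPM with miR-23b-3p and 44.7 CPM with miR-218-5p in CaSki, against 35.4 to 38.2 CPM in the control. In C-33A it was at 41.9 CPM with miR-124-3p, 39.5 CPM with miR-23b-3p and 41.9 CPM with miR-218-5p, against 36.5 to 37.1 CPM in the control. Each mimic group thus lay above the control of its line, and the 3 mimic groups of a line were compared with the same control samples. NPC1 in the authors' deposited table for CaSki with miR-23b-3p had a log2 fold change of 0.58 (SE 0.138, interval 0.31 to 0.85, edgeR adjusted p = 0.00371). In that comparison 5.89% of measured genes rose, so 1 rise among 8 genes is near the background. Unadjusted p-values under 0.05 were found there for 31.6% of measured genes and for 3 of the 7 neighbours (NPC1, SCARB2 and CD63). Its other log2 fold changes in the authors' deposited tables were 0.30 with miR-124-3p and 0.24 with miR-218-5p in CaSki, and 0.11 to 0.18 in C-33A, none of them called.

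Fold changes in this comparison also followed transcript length and GC content over all genes. After subtracting that trend, NPC1 in CaSki with miR-23b-3p stood at 0.43 (adjusted p = 0.112) and was no longer called. NPC1 also shares 604 exonic bases with RMC1, a gene on the opposite strand, and the sources used here do not give the strand setting of the counting. RMC1 stood at 0.53 in the authors' deposited table for CaSki with miR-23b-3p (adjusted p = 0.117), and its part in the value of NPC1 was not tested. CaSki minus C-33A, the difference after miR-23b-3p was 0.46 (interval 0.01 to 0.91, normal test, adjusted p = 0.301). The 3' UTR match of NPC1 for miR-23b-3p, shown above, thus lies in a message that was higher with this mimic.

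NPC2, its soluble partner, showed the widest gap in level between the lines and little movement within them. It was at 182 CPM with miR-124-3p, 185 CPM with miR-23b-3p and 191 CPM with miR-218-5p in CaSki, against 188 to 190 CPM in the control. In C-33A it was at 13.6 CPM with miR-124-3p, 18.0 CPM with miR-23b-3p and 15.7 CPM with miR-218-5p, against 16.5 to 16.7 CPM in the control. The control level in CaSki was 11.4 times that in C-33A, a ratio across tables normalized separately and without a test. Its log2 fold changes in the authors' deposited tables ran from -0.06 to 0.03 in CaSki and from -0.30 to 0.13 in C-33A. With miR-23b-3p, for which it holds an 8mer, the authors' deposited tables gave -0.03 in CaSki (interval -0.24 to 0.19) and 0.13 in C-33A (interval -0.27 to 0.53). NPC2 shares 103 exonic bases with ISCA2 on the opposite strand, which stood at -0.75 in the authors' deposited table for CaSki with miR-23b-3p (edgeR adjusted p = 3.99e-05). The part of ISCA2 in the value of NPC2 was not tested.

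Neither LAMP glycoprotein was called in any comparison. LAMP1 was at 132 CPM with miR-124-3p, 143 CPM with miR-23b-3p and 137 CPM with miR-218-5p in CaSki, against 127 to 129 CPM in the control. In C-33A LAMP1 was at 79.0, 84.7 and 79.0 CPM with the same 3 mimics, against 79.8 to 81.2 CPM in the control. The log2 fold changes of LAMP1 in the authors' deposited tables lay between -0.04 and 0.17. It holds 2 miR-23b-3p matches, and with that mimic its interval was -0.06 to 0.40 in CaSki and -0.25 to 0.42 in C-33A.

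LAMP2 was at 272 CPM with miR-124-3p, 298 CPM with miR-23b-3p and 253 CPM with miR-218-5p in CaSki, against 267 to 275 CPM in the control. In C-33A LAMP2 was at 55.7 CPM with miR-124-3p, 69.8 CPM with miR-23b-3p and 56.0 CPM with miR-218-5p, against 71.6 to 72.9 CPM in the control. The miR-124-3p and miR-218-5p groups of C-33A were thus the low ones. LAMP2 in the authors' deposited tables for C-33A had a log2 fold change of -0.39 with miR-124-3p (interval -0.74 to -0.03) and of -0.37 with miR-218-5p (interval -0.70 to -0.05), each with an edgeR adjusted p of 1. After subtracting the trend on length and GC content these stood at -0.26 and -0.19, and against the average of the line's other mimics at -0.18 and -0.16. LAMP2 had an unadjusted p under 0.05 in each, as did 10.9% of measured genes with miR-124-3p and 5.42% with miR-218-5p. With miR-218-5p, for which LAMP2 holds the 8mer shown above, the authors' deposited table for CaSki gave -0.10 (interval -0.34 to 0.13). The difference CaSki minus C-33A after miR-218-5p was 0.27 (interval -0.13 to 0.67, normal test, adjusted p = 1).

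SCARB2, the sorting receptor, was higher with each mimic than in the control in CaSki and nearly level in C-33A, with no call. It was at 70.7 CPM with miR-124-3p, 69.0 CPM with miR-23b-3p and 68.3 CPM with miR-218-5p in CaSki, against 56.8 to 59.1 CPM in the control. In C-33A it was at 194 CPM with miR-124-3p, 197 CPM with miR-23b-3p and 196 CPM with miR-218-5p, against 202 to 206 CPM in the control. The authors' deposited tables for CaSki gave log2 fold changes of 0.26 with miR-124-3p, 0.28 with miR-23b-3p and 0.23 with miR-218-5p, the smallest adjusted p being 0.265. Set against the average of the other mimics in CaSki, SCARB2 stood at 0.0048 with miR-124-3p, 0.04 with miR-23b-3p and -0.04 with miR-218-5p. No neighbour had an unadjusted p under 0.05 in CaSki with miR-218-5p (7.54% of measured genes did) or in C-33A with miR-23b-3p (4.68%).

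CD63 and TMEM192 were not called in any comparison. CD63 was at 164 CPM with miR-124-3p, 166 CPM with miR-23b-3p and 177 CPM with miR-218-5p in CaSki, against 189 to 203 CPM in the control. In C-33A CD63 was at 87.7, 87.8 and 85.3 CPM with the same mimics, against 87.8 to 89.4 CPM in the control. Its lowest log2 fold change was -0.29 in the authors' deposited table for CaSki with miR-23b-3p (interval -0.51 to -0.08, edgeR adjusted p = 0.154), and after subtracting the length and GC trend it stood at -0.05. CD63 shares 237 exonic bases with AC009779.2 on the opposite strand. TMEM192 was at 9.15 CPM with miR-124-3p, 10.1 CPM with miR-23b-3p and 11.6 CPM with miR-218-5p in CaSki, against 10.9 to 11.4 CPM in the control. In C-33A TMEM192 was at 23.9, 23.3 and 24.6 CPM with the same mimics, against 24.8 to 25.3 CPM in the control. With both its matches, TMEM192 had log2 fold changes of -0.18 with miR-23b-3p and 0.09 with miR-218-5p in the authors' deposited tables for CaSki, and of -0.09 and -0.03 in those for C-33A.

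Of the 6 pairs of a gene and a mimic with a seed match among these genes, each measured in both lines, 1 of the 12 values was called, and that was the rise of NPC1. No value was a called fall, and with miR-23b-3p 4.47% of measured genes fell in CaSki and 0.148% in C-33A, with miR-218-5p 0.0994% and 0.326%, so a count of 0 is near the background. The lower ends of the intervals of these 12 values ran from -0.70 (LAMP2 in C-33A with miR-218-5p) to 0.31 (NPC1 in CaSki with miR-23b-3p). Over all 48 values, matched or not, the SE ran from 0.102 to 0.228. What size of fall could be detected was not tested.

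Levels per kilobase of the longest protein coding transcript put the genes on a scale on which they can be compared within a line. In the CaSki control the order was CD63 (158 CPM per kb), NPC2 (131), LAMP2 (67.3), LAMP1 (47.3), CD164 (44.4), SCARB2 (12.1), NPC1 (7.19) and TMEM192 (1.11). In the C-33A control it was CD164 (128 CPM per kb), CD63 (72.0), SCARB2 (42.6), LAMP1 (29.9), LAMP2 (18.0), NPC2 (11.6), NPC1 (7.15) and TMEM192 (2.51). CD164 thus led in C-33A and took place 5 in CaSki, next to LAMP1. With the length of all exons in place of that transcript, SCARB2 took place 5 in C-33A, after LAMP1 and LAMP2, and place 7 in CaSki, after NPC1. Whether neighbours in these orders differ beyond the spread between samples was not tested. With miR-124-3p the level of CD164 in C-33A, 154 CPM, came close to that of the CaSki control, 146 to 152 CPM, across tables normalized separately.

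The lines were compared gene by gene after each mimic with a normal test on the recovered SEs, adjusted over all genes whose log2 CPM averaged at least 0 in each. None of the 7 neighbours passed after any mimic, nor did CD164 after miR-23b-3p or miR-218-5p. After miR-124-3p 0% of 12970 genes passed, after miR-23b-3p 1.7% of 12905 and after miR-218-5p 0% of 12902. The unadjusted p was under 0.05 for 325 genes (2.51%) after miR-124-3p, 2016 (15.6%) after miR-23b-3p and 201 (1.56%) after miR-218-5p, and among these values for NPC1 after miR-23b-3p alone. Tables of the same size were also simulated with normal errors. There a difference of 1 on the log2 scale was found in 53% of cases after miR-124-3p. After miR-23b-3p 63% were found and after miR-218-5p 53%.

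**Figure D3:**
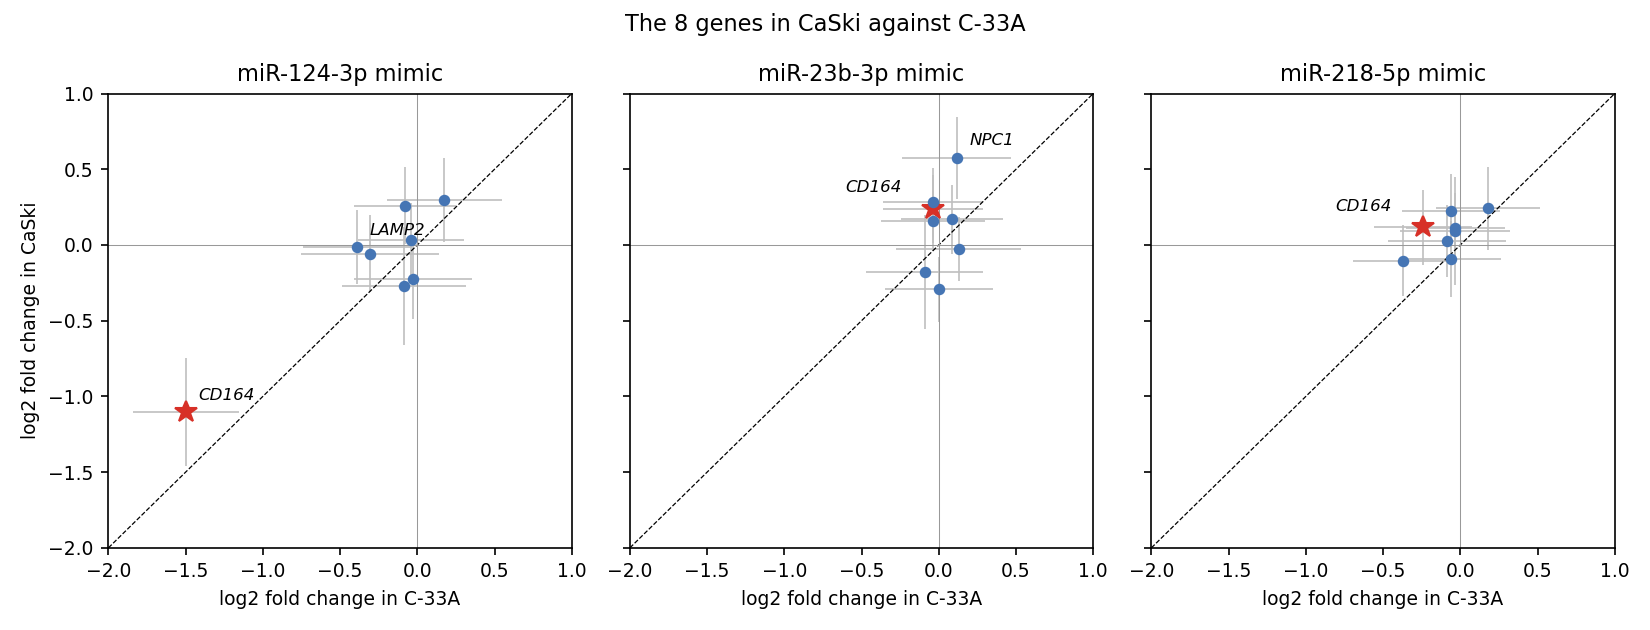
Log2 fold change in CaSki (vertical) against C-33A (horizontal) for the 8 genes after each mimic, with 95% intervals and the line of equality dashed; the star is CD164. CD164 lies far below 0 in both lines with miR-124-3p, at -1.10 and -1.50, and with the other mimics it lies among the neighbours.

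The wider lysosomal system was followed in 6 lists with 154 genes in the tables: other membrane proteins, enzymes and cofactors, sorting receptors and adaptors, the TFEB family with lysosomal nutrient sensing, the HOPS and BORC complexes, and the LAMP family with sialomucins. With miR-124-3p, 2 of 137 measured genes fell and none rose in CaSki (1.46% called, against 1.4% of all genes), and 1 of 135 fell and none rose in C-33A (0.741%, against 0.754%). The medians of these genes were 0.01 in CaSki and 0.06 in C-33A. The shares called among lysosomal and sorting genes thus lay near those of all genes.

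The genes that fell with miR-124-3p were transporters and a sorting adaptor. SLC17A5 (sialin), which exports sialic acid from lysosomes, had 31.1 CPM with miR-124-3p in C-33A, against 70.2 CPM in the control. Its log2 fold change in the authors' deposited table was -1.18 (edgeR adjusted p = 2.42e-06), and in that for CaSki it was -0.72 (adjusted p = 0.217). GGA2, a clathrin adaptor for mannose 6-phosphate receptors, had 30.2 CPM with miR-124-3p in CaSki, against 52.6 CPM in the control. GGA2 had -0.80 in the authors' deposited tables in CaSki (edgeR adjusted p = 0.00125) and -0.61 in C-33A (adjusted p = 0.223). The membrane protein MFSD1 had -0.56 in the authors' deposited table for CaSki (edgeR adjusted p = 0.0478) and -0.61 in that for C-33A (adjusted p = 0.406). The call of MFSD1 was lost when fold changes were centred on the median (adjusted p = 0.0646) and with the length and GC trend removed (adjusted p = 0.225), where the adaptor subunit AP1S3 was called as a rise instead. None of these 3 genes passed the test of the difference between lines.

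With miR-23b-3p, 6 of 138 measured list genes rose and 6 fell in CaSki, which is 8.7% called against 10.4% of all genes, and 0 of 135 were called in C-33A (0.225% of all genes). The amino acid transporter SLC36A1 rose by 0.89 on the log2 scale in the authors' deposited table for CaSki (edgeR adjusted p = 0.000279), and it had 0.84 in that for C-33A (adjusted p = 0.083). SLC36A1 was also above its control with the other mimics, at 0.60 and 0.64 in CaSki and 0.56 and 0.75 in C-33A with miR-124-3p and miR-218-5p in the authors' deposited tables, none of them called. The peptidase TPP1 rose by 0.90, the sorting receptor SORL1 by 0.67 and the sialomucin PODXL by 0.71 in the authors' deposited table for CaSki. The cathepsin CTSL (-0.44), the clathrin adaptor subunit AP1S1 (-0.59) and the Ragulator subunits LAMTOR1 (-0.60) and LAMTOR2 (-0.49), which anchor mTORC1 signalling at the lysosome, fell in the authors' deposited table for CaSki. With the length and GC trend removed, 4 of the 12 calls were kept (SLC36A1, TPP1, PODXL and the receptor M6PR), 8 were lost and 4 other list genes were called. The lost ones include SORL1 (0.35), AP1S1 (-0.34), CTSL (-0.35), LAMTOR1 (-0.36) and LAMTOR2 (-0.10). Of the 10 epithelial markers, 3 (KRT8, KRT19 and KRT17) also fell in the deposited comparison, and their part in these values was not tested. With the trend removed KRT8 stood at -0.52, and KRT19 (-0.13) and KRT17 (-0.11) were no longer called. None of the HOPS and BORC genes was called in any comparison. With miR-218-5p, 0 of 137 list genes were called in CaSki (0.115% of measured genes) and 0 of 135 in C-33A (0.357%), which is near the background.

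**Figure D4:**
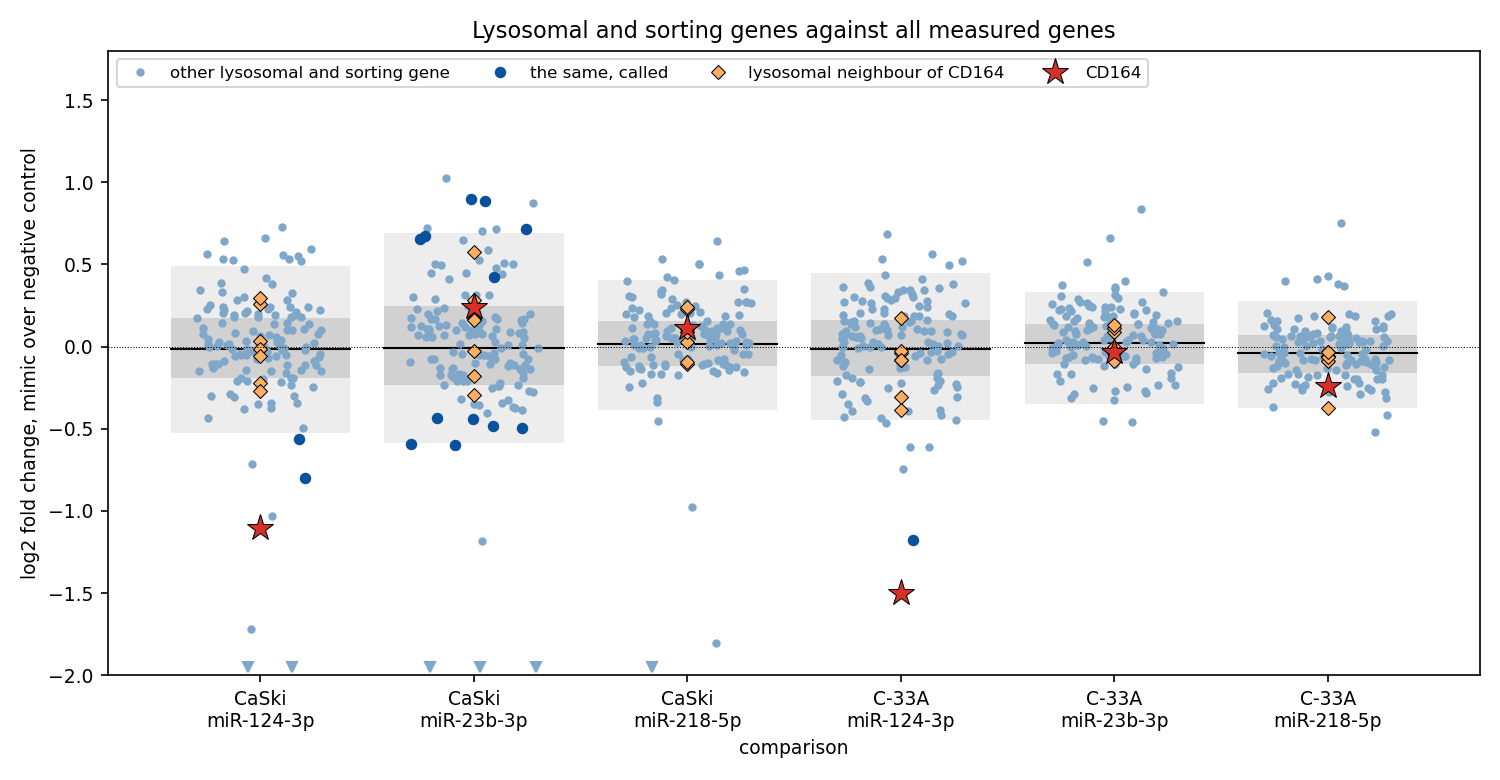
Log2 fold change, mimic over negative control, of CD164 (star), its 7 neighbours (diamonds) and the other lysosomal and sorting genes (points, dark where called) in each comparison; grey bands hold the central 50% and 90% of all measured genes and the line is their median. CD164 lies below the bands with miR-124-3p only; triangles mark list genes below -2 in CaSki, NEU1 among them.

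The genes whose 6 log2 fold changes lay nearest to those of CD164, by Euclidean distance among 9694 protein coding genes measured in all tables, were ATL3 (0.271), MAGT1 (0.327), SGMS2 (0.446), VAMP3 (0.527) and ITGB1 (0.541). ATL3 shapes the endoplasmic reticulum, MAGT1 transports magnesium and serves in N-glycosylation, and SGMS2 makes sphingomyelin. VAMP3 is a vesicle fusion protein. These genes in the authors' deposited tables for miR-124-3p ranged from -1.41 (VAMP3) to -0.95 (SGMS2) in CaSki and from -1.45 (ATL3) to -1.18 (SGMS2) in C-33A. Among the neighbours the nearest was LAMP2, at place 894 with a distance of 1.58, and the farthest NPC1, at place 8201. The distance includes the miR-124-3p values that chose CD164. Genes that fell alike with that mimic thus come out near it, and unmoved genes come out far. The 6 comparisons rest on 2 sets of control samples, so they are not independent points.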

How the data were processed

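Results rest on 6 deposited tables, 1 for each comparison. Per the file headers, the authors gave log2 values (fold change and average CPM), the F test score, the p-value and its adjusted form (FDR) by gene. Tools named in the submitters' processing notes are STAR 2.7.10b, FastQC 0.73, edgeR 3.36.0 and featureCounts 2.0.3, with GRCh38 (hg38). Recomputing Benjamini-Hochberg values gave the deposited FDR when taken over all 61217 listed genes, and a gene was called at an FDR under 0.05. Since separate cultures are not stated, the spread behind the p-values is that between samples, possibly technical. The F score and p-value of CD164 with miR-124-3p imply 31.5 denominator degrees of freedom in CaSki and 183651 in C-33A. Both exceed the number of samples compared, so the spread was pooled over genes, in part in CaSki and almost wholly in C-33A. The p-values and intervals of CD164 in C-33A thus do not measure its own spread between samples. Over the 8 genes in C-33A these degrees of freedom ran from 109 to 183651 with miR-124-3p. They ran from 227 to 244868 with miR-23b-3p and from 1064 to 244868 with miR-218-5p. The C-33A intervals of all 8 genes, and the tests between lines that use them, thus rest mostly on a pooled spread.

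Each SE was obtained by dividing the fold change (log2) by the normal quantile of its p-value, and 95% intervals from it cover the error behind that p-value. Group levels were solved from the fold change, the average CPM and the numbers of samples. The trend on transcript length and GC content was a robust spline (statsmodels 0.14.6, Python 3.11.15). The SE recovery and the test between lines were tested on simulated data with normal errors. Deposited p-values come from F tests, so that simulation cannot show how well their SEs were recovered. For the 8 genes in CaSki these F tests had 25.7 to 38.2 denominator degrees of freedom. There the normal quantile gives larger SEs than the fold change over the square root of F. The excess is greatest for the smallest p-values, such as that of CD164 with miR-124-3p. Named genes were the 8 members, up to 2 called genes with the lowest p-value for each list and comparison, and the 5 nearest to CD164; KRT17, M6PR, AP1S3, NEU1 and the overlapping RMC1, ISCA2 and AC009779.2 were named after their values were seen. Members and lists were chosen with earlier results of these data known. Sequences are from RefSeq and GENCODE release 29.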

Additional observations from a re-analysis of the deposited data

How the results depend on the processing

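No paired analysis was possible because the deposited tables hold no values per sample; for the same reason leaving out replicates, an edgeR refit and DESeq2 were not run, and seed matches of miR-124-3p are not analysed here. The cause of the changes below was not tested.

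Members called in CaSki with miR-23b-3p numbered 1, and 2 (NPC1 and CD63) when adjusted over measured genes alone, and 0 once the length and GC trend was removed (NPC1 0.43, adjusted p = 0.112). Other lysosomal and sorting genes called with miR-124-3p numbered 2 in CaSki, and 6 with that adjustment, 1 at an FDR under 0.01 and 1 when centred on the median. In C-33A they numbered 1, and 3 with that adjustment and 2 with the trend removed. With miR-23b-3p they numbered 12 in CaSki, and 25 with that adjustment, 8 after trend removal and 7 at an FDR under 0.01. In C-33A they numbered 0, and 1 with that adjustment and 1 at an FDR under 0.1. With miR-218-5p in C-33A they numbered 0, and 1 with that adjustment. The shares of all measured genes called under these settings were not counted. These counts thus cannot be read as changes particular to lysosomal genes. All genes that differed between lines after miR-23b-3p numbered 220. With the SE taken from the deposited F score they numbered 419, and when centred on the median 240. The 8 members were not among them in any setting.

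Against the mean of the other 2 mimics, CD164 stood at 0.73 with miR-23b-3p and 0.55 with miR-218-5p in CaSki. In C-33A it stood at 0.83 and 0.53. Each of these means holds the miR-124-3p fall that chose CD164, so the values do not show a rise. Against the control CD164 had 0.24 and 0.12 in CaSki and -0.04 and -0.24 in C-33A with these mimics, none called. Uncalled values turned sign with the trend removed: LAMP2 (0.0078) and NPC2 (0.10) with miR-124-3p, NPC2 (0.20) with miR-23b-3p and TMEM192 (-0.042) with miR-218-5p in CaSki, and CD63 (0.072) with miR-124-3p and CD164 (0.036), LAMP1 (-0.014) and LAMP2 (0.054) with miR-23b-3p in C-33A. Centring turned LAMP2 (0.00055) with miR-124-3p in CaSki and LAMP1 (0.0088) and TMEM192 (0.0084) with miR-218-5p in C-33A. Pearson correlation shared 1 of the 5 genes nearest to CD164, namely MAGT1. The place of CD164 per kilobase was the same with the length of all exons, an alternative chosen after seeing the data.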

Other observations

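NEU1, the lysosomal sialidase, stood at -12.63 with miR-124-3p, -13.16 with miR-23b-3p and -12.68 with miR-218-5p in the authors' deposited tables for CaSki, each with an adjusted p of 1. In CaSki 145 genes with miR-124-3p, 160 with miR-23b-3p and 140 with miR-218-5p that were measured had a log2 fold change below -8, none was above 8, and 0 of them were called. In C-33A there were 0 such genes. The 3 CaSki tables share their control samples.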
